A study of Homo sapiens with 3 samples.

Results

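The 10 genes described here encode plasma proteins that the liver secretes: AFP, ALB, TTR, SERPINA1, FGA, FGB, FGG, AHSG, AMBP and RBP4. They were taken by symbol as listed rows of a UMI count table, and all 10 of 10 were among its 32738 genes. UMIs (unique molecular identifiers) mark single RNA molecules. The table came from chambered cardiac organoids (CCOs) grown from H7, a human embryonic stem cell line, and read by droplet single-cell RNA sequencing of transcript 3′ ends. There was 1 library at each of D8, D14 and D21 of differentiation, with no genetic change and no treatment beyond the culture media. Per the study's methods, H7 cells were directed towards cardiomyocytes (CMs) with a GSK inhibitor and later IWP-2. They were dissociated on day 7 and embedded in Matrigel as organoids. The organoids then grew in a medium with growth factors, Wnt-3A and EDN1. From D14 they were kept in another medium in a spinner flask. Between D14 and D21 the day, medium, culture format and library thus cannot be told apart. With 1 library per day there was no test between days or cell groups. Levels are given as UMIs per 1000000 UMIs of a group (CPM). Every 95% interval covers counting error only, not differences between cells, organoids or libraries.

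Plasma proteins are made by hepatocytes and, before the liver forms, partly by yolk sac and foregut endoderm. TTR carries thyroid hormone and, bound to RBP4, retinol. AFP is the main fetal plasma protein and ALB, its neighbour in the genome, the main adult one. SERPINA1 inhibits neutrophil elastase. FGA, FGB and FGG are the chains of fibrinogen, the clot protein. AHSG (fetuin-A) limits calcification, and AMBP is cut into alpha-1-microglobulin and bikunin.

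After the filter on genes and mitochondrial reads, 2657 of 3563 barcodes remained at D8, 3585 of 4615 at D14 and 1946 of 9149 at D21. Their median depth was 15316, 12282 and 14106 UMIs. Libraries shared few barcode sequences among kept cells, 14 between D8 and D14, 9 between D8 and D21 and 10 between D14 and D21. Cells were clustered without the 10 genes, so these did not enter the clustering directly. Other liver genes did enter it, and hepatic markers named clusters, so the groups are not independent of the levels measured. A cluster of 257 D8 and 207 D14 cells had 7 of 8 endoderm markers and 4 of 8 hepatic markers at least 2-fold above the other cells of D8, and is called endoderm-like. It was led by PRSS1, TTR, APOA2, S100A14 and APOA1. A second cluster, of 306 D21 cells and 4 D14 cells, had 7 of 8 endoderm and 8 of 8 hepatic markers past that fold and is called hepatic endoderm-like. In it EPCAM was at 351 CPM, FOXA2 at 15.2 CPM and HNF4A at 63.5 CPM, while CXCR4, an early endoderm marker, was at 0.133 CPM. Of 8 blood markers, LYZ (70.5 CPM) and CD68 (62.2 CPM) were past 2-fold in it, and PTPRC was at 0. Endoderm-like cells were 9.67% of kept D8 cells and 5.77% of kept D14 cells, and the hepatic endoderm-like cells were 15.7% of kept D21 cells.

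The start regions of 4 of the genes, all on chromosome 4, are printed. They are those of ALB and its neighbour AFP, and of the fibrinogen genes FGB and FGA. All 4 hold the letters marked below. That of FGG, which starts nearer to FGA than FGB does, has 0 matches of these letters and is not printed. The starts of ALB and AFP lie 31.9 kb apart and those of FGB and FGA 27.8 kb apart, with FGG 21.9 kb beyond FGA. The 250 bases before each start were taken from RefSeq (GRCh38.p14) and run 5′ to 3′ on the gene's strand. Capitals mark GTTAAT on either strand, the core of the site of HNF1, a liver transcription factor family. The windows are chr4:73404037-73404286 (plus strand) for ALB, chr4:73435971-73436220 (plus strand) for AFP, chr4:154562730-154562979 (plus strand) for FGB at its first listed start and chr4:154590743-154590992 (minus strand) for FGA.
ALB: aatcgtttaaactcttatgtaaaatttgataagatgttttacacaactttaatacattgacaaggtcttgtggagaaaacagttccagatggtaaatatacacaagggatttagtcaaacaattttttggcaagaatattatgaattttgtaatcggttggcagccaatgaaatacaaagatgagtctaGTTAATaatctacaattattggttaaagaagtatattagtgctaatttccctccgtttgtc
AFP: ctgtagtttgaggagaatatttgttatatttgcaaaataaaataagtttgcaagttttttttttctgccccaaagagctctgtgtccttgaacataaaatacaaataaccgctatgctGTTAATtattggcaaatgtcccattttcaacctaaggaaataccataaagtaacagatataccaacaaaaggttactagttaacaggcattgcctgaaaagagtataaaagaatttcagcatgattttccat
FGB: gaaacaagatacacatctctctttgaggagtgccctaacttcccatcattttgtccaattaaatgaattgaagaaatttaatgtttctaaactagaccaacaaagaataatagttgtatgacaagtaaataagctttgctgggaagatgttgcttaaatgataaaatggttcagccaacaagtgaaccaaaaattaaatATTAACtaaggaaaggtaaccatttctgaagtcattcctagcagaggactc
FGA: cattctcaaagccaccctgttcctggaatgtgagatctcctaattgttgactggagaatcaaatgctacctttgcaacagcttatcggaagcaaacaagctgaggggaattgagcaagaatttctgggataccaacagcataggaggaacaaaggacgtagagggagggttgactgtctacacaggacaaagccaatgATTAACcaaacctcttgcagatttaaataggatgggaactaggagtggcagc
The core began 61 bases before the start of ALB and 132 bases before that of AFP. It began 51 bases before the start of FGB and 52 before that of FGA, on the opposite strand in both. RefSeq windows were found for 9 of the 10 genes, 13 windows in all, and TTR was not matched. GTTAAT was in 6 of the 13 windows, from 5 of these 9 genes, the fifth being SERPINA1. It was in 6.23% of all 35116 windows. The longer GTTAATNAT, which contains this core, was in 3 of the 13 windows (ALB, AFP and FGA) and in 0.723% of all windows. TTGCNNAA, a C/EBP core, was in 7 of the 13 windows and in 9.05% of all. These were windows of 6 of the 9 genes (AFP, AHSG, ALB, FGA, FGB and RBP4). TGTTTAC, a FOXA core, was in none of the 13 windows and in 2.98% of all. TATAAA was in 3 of the 13 windows, of AFP and RBP4, and in 10.7% of all. Both strands were searched. These are matches of letters, and no binding was measured.

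TTR was the early gene of the set. In endoderm-like cells it stood at 666 CPM at D8 (interval 646 to 686, 4418 UMIs) and at 616 CPM at D14 (594 to 638, 2929 UMIs), against 1418 CPM in the hepatic endoderm-like cells of D21 (1391 to 1445). Its D8 and D14 levels were thus 46.9% and 43.4% of the D21 level. TTR was already the most abundant of the 10 genes at both early days and the least abundant at D21. In the D14 endoderm-like cells none of the other 9 genes reached 1% of its D21 level. That group leaves out 4 D14 cells, rich in several of these genes, that fell in the hepatic cluster.

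The other genes became countable in an order unlike that of their D21 levels. SERPINA1 was at 20.3 CPM at D8 (135 UMIs), at 76.1 CPM at D14 (362 UMIs) and at 20847 CPM at D21. Its D14 level was 3.74-fold the D8 level (3.06 to 4.59) and 0.365% of the D21 level (0.328 to 0.405). Single D14 cells held 125, 63 and 48 of the 362 UMIs, and SERPINA1 was seen in 24 D8 and 22 D14 cells. The rise thus rests on few cells, a spread that these intervals do not cover. RBP4 went the other way between the early days, with 73 UMIs at D8 (8.62 to 13.8 CPM) and 20 UMIs at D14 (2.57 to 6.49 CPM), a ratio of 0.382 (0.221 to 0.634), before 2892 CPM at D21. AMBP was at 3.92, 6.94 and 7984 CPM on the successive days, with a D14 over D8 ratio of 1.77 (1.03 to 3.08). The intervals of the early levels did not overlap for SERPINA1 and RBP4, and did for AMBP.

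Of the fibrinogen chains, FGA was countable at D8 and all 3 were at D14. FGA had 13 UMIs at D8 and 53 at D14 (1.96 and 11.1 CPM), FGB 1 and 63 (0.151 and 13.2 CPM) and FGG 3 and 27 (0.452 and 5.68 CPM). D14 over D8, the ratio was 5.69 for FGA (3.06 to 11.4), 87.9 for FGB (15.2 to 3525) and 12.6 for FGG (3.86 to 64.7). Single D14 cells held 18, 15 and 13 of the 63 FGB UMIs. The highest D14 cell held 14 of the 53 FGA UMIs, and for FGG 11 of the 27. The intervals do not cover this spread. At D21 the chains stood at 2006, 4450 and 2924 CPM in the same order of names. FGB was the highest chain at D14 and D21, but its D14 interval overlapped that of FGA.

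AFP was countable at D14, while AHSG was under 3 counts and ALB at 3. For neither of these 2 was a level above that of the other D14 cells detectable. AFP had 2 UMIs in the D8 endoderm-like cells and 21 at D14 (4.41 CPM, 2.73 to 6.75), a D14 over D8 ratio of 14.6 (3.58 to 129). Single D14 cells held 10 and 8 of the 21 AFP UMIs. Its D14 interval overlapped that of FGG and lay above those of ALB and AHSG. AFP was at 11279 CPM at D21, a fold of 2555 over D14 (1671 to 4128). AHSG had 1 and 2 UMIs, and was at 8120.1 CPM at D21. ALB had 0 UMIs among 6636390 at D8, which allows up to 0.452 CPM at 3 counts, and 3 UMIs at D14 (0.631 CPM). At D21 ALB was the highest of the set, at 31641 CPM (31513 to 31768). That is at least 69993-fold higher than D8, taken against 3 counts over the group, and 50178-fold the D14 level with an interval of 17170 to 243321.

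**Figure D1:**
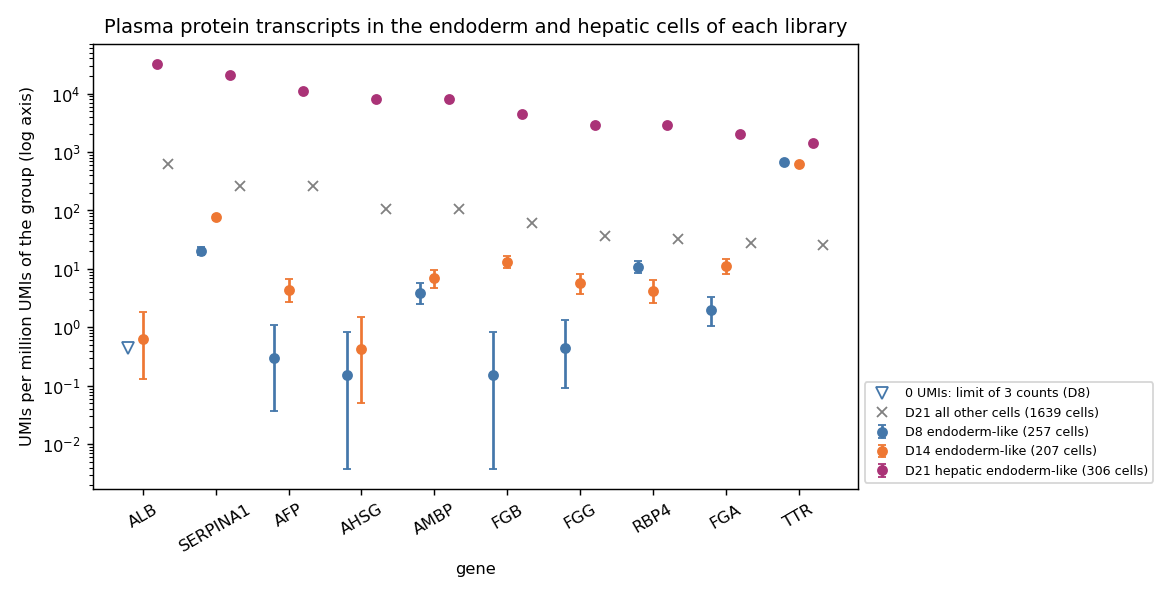
Level of each gene in UMIs per 1000000 UMIs of the group (log axis), with 95% counting intervals, in endoderm-like cells of D8 and D14 and hepatic endoderm-like cells of D21; the open triangle is the limit of 3 counts for ALB at D8, and crosses are all other D21 cells. TTR sits at 666 and 616 CPM early, far above the other genes, and is the lowest gene at D21 with 1418 CPM.

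In D21 hepatic endoderm-like cells the levels ran from ALB over SERPINA1 (20847 CPM) and AFP (11279 CPM) to AHSG (8120.1 CPM), AMBP (7984 CPM), FGB, FGG, RBP4, FGA and TTR. Only FGG (2924 CPM) and RBP4 (2892 CPM) had overlapping intervals among neighbours in this order. Reads came from 3′ ends, so levels were not divided by transcript length, and the order is one of counted molecules. Together the 10 genes took 9.36% of all UMIs of these cells, against 0.0704% in the endoderm-like cells of D8 and 0.0738% in those of D14.

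All 10 genes were past 2-fold, with 10 CPM added to both levels, in hepatic endoderm-like cells of D21 over endoderm-like cells of D14, where 7.82% of the 8891 genes at or above 10 CPM were. Their median log2 difference was 7.80 on this scale, beside -0.33 over all genes compared. Between D14 and D8, 2 of the 10 genes (SERPINA1 and FGB) were past 2-fold higher and none lower, against 2.6% of 8659 genes higher and 1.32% lower. The median over the 10 genes was 0.38, beside -0.07 for all genes. Of the 10, 5 were at or above 10 CPM in either group of that comparison and all 10 in the later one. CPM thus placed most genes lower at D21, and with median-of-ratios scaling the TTR level of D14 was 29.2% of that at D21.

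**Figure D2:**
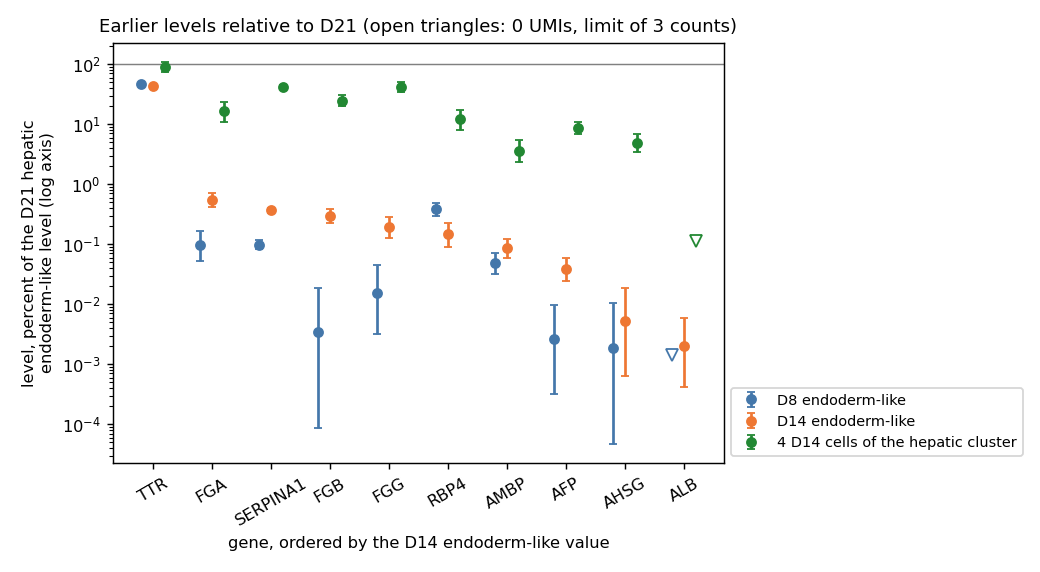
Level at D8 and D14 as a percent of the D21 hepatic endoderm-like level (log axis, 95% counting intervals), in endoderm-like cells and in the 4 D14 cells of the hepatic cluster; open triangles mark ALB with 0 UMIs, at the limit of 3 counts. TTR is at 46.9% and 43.4%, and every other gene is below 1% in endoderm-like cells of both days.

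At D8 the endoderm-like cells held 84.7% of the UMIs of the 9 genes other than TTR (254 UMIs, against 46 in the other cells). At D14 they held 27.6% (584 UMIs), against 51.9% in 4 D14 cells of the hepatic cluster (1099 UMIs) and 20.5% in all other cells (434 UMIs). TTR lay mainly in the endoderm-like cells at both days. At D8 TTR was 154-fold higher there than in the other 2400 cells (132 to 180; 4.34 CPM in the others) and SERPINA1 204-fold (77.9 to 760, 4 UMIs in the others). RBP4 was 24.5-fold (14.5 to 43.7), AMBP 31.4-fold (11.9 to 105) and FGA 78.6-fold (11.8 to 3341, 1 UMI in the others) higher. ALB had no UMI among 6636390 in the D8 endoderm-like cells and 14 among 40131348 in the other cells (0.349 CPM). The interval of this ratio ran from 0 to 1.82, and no difference was detectable at this depth. By the 2-fold rule 3 of the 10 genes (TTR, SERPINA1 and RBP4) were higher at D8, where 2.58% of 8659 genes were. At D14 4 of the 10 (TTR, SERPINA1, FGA and FGB) were higher, where 3.09% of 9342 genes were. Only these 3 and 4 genes were at or above 10 CPM in either group, so the rest were too low for this rule to compare. At D21 all 10 were compared and higher, against 7.97% of 9018 genes, with folds from 42.4 for AFP to 88.0 for RBP4.

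Among the early cells TTR was unevenly spread. A TTR UMI was found in 146 of 257 D8 cells and 126 of 207 D14 cells at full depth, and in 38.1% (32.2 to 44.4) and 38.2% (31.5 to 45.2) after each cell was thinned to 4000 UMIs. In the other cells, which should lack TTR, the thinned shares were 2.04% at D8 and 1.66% at D14, where median depths were 14796 and 12102 UMIs against 23591 and 20529 in the endoderm-like cells. The highest cell held 607 TTR UMIs at D8 and 513 at D14. The 26 cells with most TTR held 77.3% of its D8 UMIs, and the 21 with most held 74.7% of its D14 UMIs. Over the 257 D8 cells TTR per UMI ran with APOA1 (Spearman rho 0.57) and APOA2 (0.56), and less with FOXA2 (0.24) and HHEX (0.26). With RBP4 rho was -0.24, and with depth it was 0.16. Over the 207 D14 cells rho was 0.55 with APOA2 and 0.32 with APOA1. It was 0.48 with VTN and 0.40 with AMBP, against 0.35 and 0.18 at D8. With RBP4 it was 0.16 at D14. These cells share 1 library per day, and the values describe them only.

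The other genes lay in few early cells. SERPINA1 had a UMI in 24 D8 and 22 D14 endoderm-like cells, with at most 20 UMIs in a cell at D8 and 125 at D14. RBP4 had one in 42 D8 cells and 15 D14 cells. FGA was found in 9 and 18 cells, FGB in 1 and 7, FGG in 3 and 8, and AFP in 2 and 4. After thinning, the median endoderm-like cell showed none of the 10 genes at either day, and at most 3 genes were seen in a D8 cell and 6 in a D14 cell. The median D21 hepatic endoderm-like cell showed all 10, and 202 of the 306 cells (66.0%) did. The median other cell showed 3 of the 10 at D21, against 0 at D8 and D14.

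At D14 the genes other than TTR were concentrated in 14 barcodes with at least 20 UMIs of these 9 genes each, which held 1899 of the library's 2117 such UMIs. The hepatic cluster held 4 of them, the endoderm-like cluster 8, the CM-like cells 1 and an unnamed cluster 1. In the 4 D14 cells of the hepatic cluster SERPINA1 had 343, 211, 126 and 33 UMIs, AFP 14, 65, 0 and 2, and ALB 0 in every cell. The summed levels there were 8643 CPM for SERPINA1, 1224 CPM for FGG, 1103 CPM for FGB and 982 CPM for AFP. As a share of the D21 level this was 41.5% for SERPINA1, 41.9% for FGG, 24.8% for FGB, 16.3% for FGA, 12.2% for RBP4, 8.71% for AFP, 4.93% for AHSG and 3.64% for AMBP, with TTR at 90.6%. ALB, with 0 of 82494 UMIs, was at most 0.115% of its D21 level at 3 counts. None of the 14 barcode sequences was also in the D21 library. Adding the 4 cells to the D14 endoderm-like group took AFP from 4.41 to 21.1 CPM, SERPINA1 from 76.1 to 222 CPM (1.07% of its D21 level) and AHSG from 0.420 to 7.23 CPM, and left ALB at 0.620 CPM.

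The CM-like barcode among the 14 held 41489 UMIs, with 133 of SERPINA1, 66 of AHSG, 37 of ALB, 26 of AMBP, 25 of FGB and 23 of AFP beside 308 of ACTC1 and 204 of TNNT2, both CM genes. It was the only D14 barcode with more than 2 ALB UMIs among the 14 and held 333 of the 434 UMIs of the 9 genes found outside the endoderm-like and hepatic clusters. Its doublet score was 0.0773, between the library's median of 0.0449 and its 95th percentile of 0.138; whether it holds 2 cells was not tested. With it, ALB in endoderm-like cells was 0.636-fold the level of all other D14 cells (0.126 to 1.98) and AHSG 0.261-fold (0.0311 to 0.979). Without it these ratios were 3.58 (0.611 to 14.9) and 2.72 (0.276 to 14.3), and no difference was detectable at this depth. For SERPINA1 the fold was 21.1 with it and 111 without it.

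At D21 the hepatic endoderm-like cells differed widely from each other in ALB. ALB per cell ran from 47.7 to 156246 CPM, with quartiles of 1374, 13989 and 54152 CPM. The upper quartile was thus 39.4-fold the lower one, against 2.13-fold for SERPINA1, 2.25-fold for AMBP, 4.15-fold for AFP and 6.08-fold for FGA. ALB was under 1000 CPM in 71 of the 306 cells and over 10000 CPM in 169, while SERPINA1 was under 1000 CPM in 11 and over 10000 CPM in 250. The lowest ALB value and the 5th percentile (217 CPM) lay below the summed level of the fibroblast-like D21 cells (374 CPM).

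**Figure D3:**
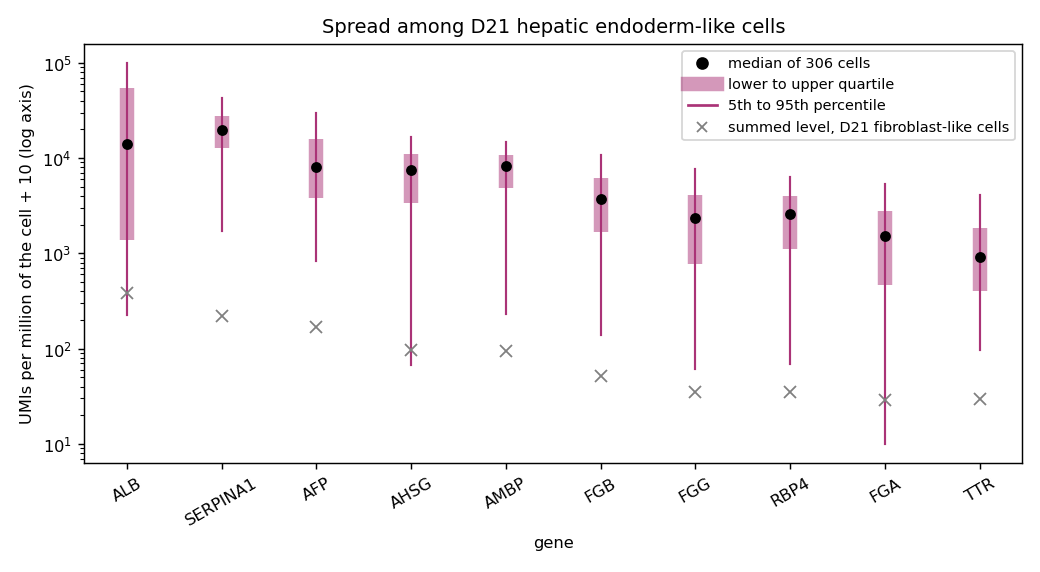
UMIs per 1000000 in single D21 hepatic endoderm-like cells (log axis, 10 added): dots are medians of 306 cells, bars run from the lower to the upper quartile and lines from the 5th to the 95th percentile, and crosses mark the summed level in D21 fibroblast-like cells. ALB has the broadest bar, from 1374 to 54152 CPM, while SERPINA1 spans 12866 to 27379 CPM.

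Across the 306 cells the fibrinogen chains varied together. Spearman rho was 0.86 for FGA and FGB, 0.84 for FGA and FGG and 0.83 for FGB and FGG, and 0.76, 0.76 and 0.75 after thinning. AMBP and RBP4 followed with 0.68, and ALB ran with RBP4 (0.60), AMBP (0.58) and FGG (0.57). The neighbours AFP and ALB were nearly unrelated (0.07), as were SERPINA1 with TTR (0.01), FGB (0.06) and FGA (0.08). The levels ran weakly with depth, from 0.05 for AFP to 0.33 for AHSG, and with the mitochondrial percent, from 0.19 for AFP to 0.36 for RBP4. The cells come from 1 library and share its depth and free RNA, and no p is given.

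**Figure D4:**
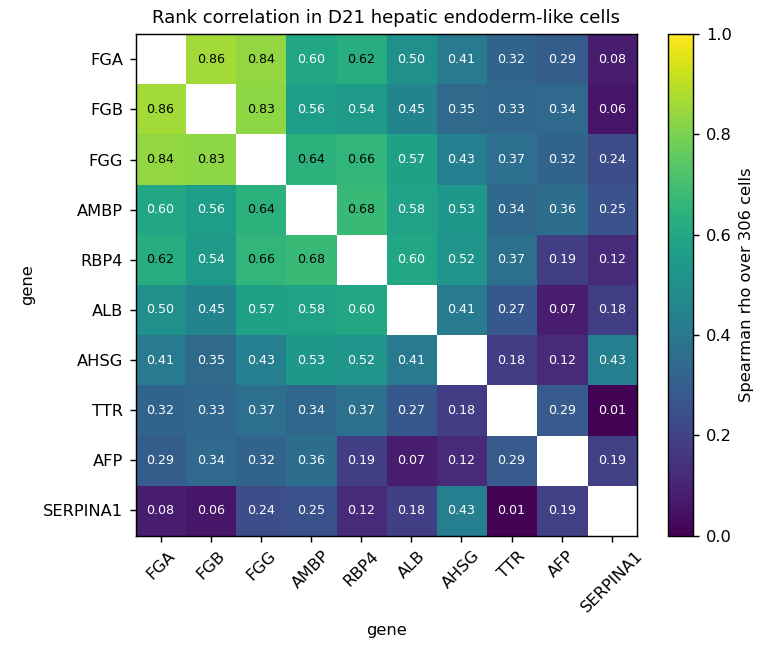
Spearman rho of each pair of genes over the 306 D21 hepatic endoderm-like cells, from UMIs per 1000000 of each cell. The fibrinogen chains form the brightest block at 0.83 to 0.86, while AFP with ALB is at 0.07.

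RNA of all 10 genes was also found in D21 cells of other types. In fibroblast-like cells the ALB level came to 374 CPM, that of AFP to 159 CPM and that of SERPINA1 to 211 CPM. In cluster 4, the larger CM-like cluster, the same levels came to 367, 162 and 202 CPM. After thinning, an ALB UMI was in 71.4% of fibroblast-like cells (68.2 to 74.5) and 72.4% of cells of cluster 4, against 93.8% of hepatic endoderm-like cells (90.5 to 96.2). The median depths of the 3 groups were 12707, 12967 and 21930 UMIs. The hepatic level was 70.9 to 116 times that in fibroblast-like cells for every gene. ALB was 33.8% of their summed UMIs in hepatic and 35.7% in fibroblast-like cells, SERPINA1 22.3% and 20.2%, and AFP 12.1% and 15.2%, and for none of the 3 did the counting intervals overlap. The part of free RNA in these levels was not tested.

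A CM-like cluster of 50 D21 cells, cluster 17, stood apart. ALB was at 12457 CPM there, AFP at 5366 CPM and SERPINA1 at 2775 CPM, at a median depth of 8172 UMIs, with 5 of 8 CM markers past 2-fold. After thinning its median cell showed 9 of the 10 genes, and 19 of the 50 cells showed all 10. The hepatic level was only 2.10-fold (AFP) and 2.54-fold (ALB) that of cluster 17, but 6.96-fold for AMBP, 7.51-fold for SERPINA1 and 7.68-fold for RBP4. ALB and AFP made up 48.6% and 20.9% of the summed UMIs in it, and SERPINA1 10.8%. In the 5221 D21 barcodes with 2000 genes or fewer, which were not kept, those shares were 41.2%, 19.7% and 15.5%. The part of free RNA or of joined cells in cluster 17 was not tested. Without it the 2-fold count over other D21 cells was again 10 of 10.

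**Figure D5:**
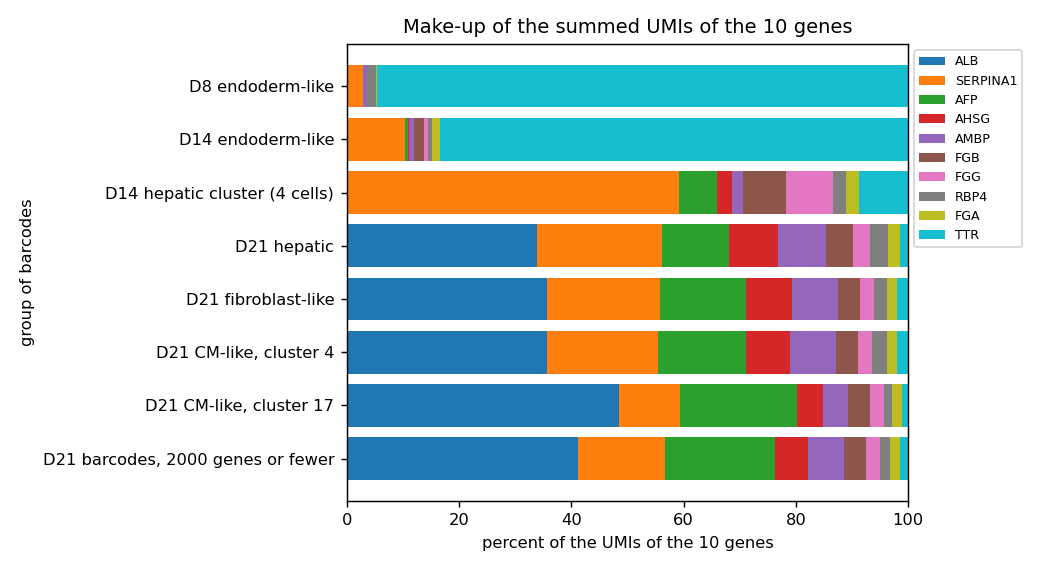
Each gene's percent of the summed UMIs of the 10 genes, by group of barcodes (bars add to 100). TTR fills 94.6% and 83.4% of the D8 and D14 endoderm-like bars, SERPINA1 59.2% of the bar of the 4 D14 cells, which lacks ALB, and cluster 17 has more ALB and AFP and less SERPINA1 than the D21 hepatic cells.

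Other liver genes were compared in the same groups by lists. Of 52 other secreted plasma proteins, 42 were at or above 10 CPM in either group, and 40 of these were past 2-fold higher in D21 hepatic cells than in D14 endoderm-like cells and 1 lower, beside 7.82% of all genes higher and 14.2% lower. The acute-phase protein ORM1 was at 2120 against 0.21 CPM, the haemoglobin scavenger HP at 1242 CPM against 0, and VTN (vitronectin) at 1958 against 59.5 CPM. A1BG was the lower one, at 13.3 against 81.6 CPM. Some list genes are among the markers that named the D21 cluster, so their higher level over other D21 cells is no finding. They are VTN and TF here, APOA1, APOA2, APOB and APOC3 among the apolipoproteins, and HNF4A, FOXA1, FOXA2, FOXA3 and HHEX among the transcription factors. The hepatic markers among them also parted the hepatic name from the endoderm-like one. Their higher level over D14 endoderm-like cells was thus partly set by the naming. Of 9 apolipoproteins 7 were compared and all 7 were higher, with APOA1 at 22367 against 96.9 CPM and APOC3 at 9228 against 1.26 CPM. The 3 that are no naming markers were APOE at 9821 against 886 CPM, APOC1 at 7126 against 228 CPM and APOM at 518 against 6.73 CPM. Of 24 mature liver enzymes 15 were compared and all 15 were higher, led by the fetal cytochrome CYP3A7 (331 CPM against 0). The adult CYP3A4 was at 11.2 CPM.

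The liver transcription factors were mixed, with 6 of 20 past 2-fold higher and 3 lower, the lower count being near the 14.2% of all genes. CEBPA was at 221 against 12.4 CPM and HNF4A at 63.5 against 4.20 CPM, while FOXA2 was at 15.2 against 123 CPM, HHEX at 102 against 288 CPM and TBX3 at 23.7 against 129 CPM. Of 16 genes of other endoderm lineages, 5 were compared, 2 higher and 1 lower. Of 10 genes of yolk sac and visceral endoderm, 6 were compared. Of these, 2 were higher (SLC2A2, a glucose transporter, at 168 CPM against 0) and 2 lower (LHX1 and CER1). None of 18 genes of the secretory machinery passed 2-fold in either direction. From D8 to D14, where 2.6% of all genes were higher and 1.32% lower, 2 of 10 plasma proteins compared (AGT and VTN) and 2 of 13 transcription factors (CEBPA and CEBPB) were higher. Of 6 apolipoproteins 1 was lower, APOA1 at 96.9 against 290 CPM. Of 4 genes of other endoderm lineages 1 was lower (TFF1), and of 5 of yolk sac and visceral endoderm 1 was higher (CER1) and 1 lower (LHX1). None of 3 enzymes and 18 secretory genes passed.

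The genes with the pattern most like the mean log2 level of the set, among 1064 genes at or above 100 CPM in D21 hepatic cells and over 25 points of cluster by day, were APOC3 (Pearson r 0.98), FABP1 (0.98), ITIH1 (0.98), ORM1 (0.98) and FGL1 (0.97). APOC3 and FABP1 are naming markers. All 5 were at or under 1.26 CPM in D8 and D14 endoderm-like cells. The points share libraries, and r is a description.

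At a mitochondrial limit of 5% the D21 group came to 40 cells, in which SERPINA1 was at 7016 CPM and ALB at 15932 CPM. These were 2.97-fold and 1.99-fold lower than at the limit of 10%. All 10 genes were lower, from 1.53-fold for TTR and FGB to 3.41-fold for AHSG. At 20% it came to 459 cells, with 20312 and 30114 CPM.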

How the data were processed

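The authors deposited 1 table of unnormalised UMI counts, with 32738 genes and 17327 barcodes whose suffix names the day. The library kit was a droplet 3′ kit, and the submitters' processing notes name Cell Ranger, Seurat 3.2.1 and hg19 without their roles. Barcodes with over 2000 and under 7500 genes and under 10% mitochondrial UMIs were kept. Genes in 10 or more barcodes (20394) were log-normalised to 10000 and clustered in Seurat 5.3.0 (R 4.3.3) on 1990 variable genes, which are the 2000 most variable less the 10 genes described, with 20 components, resolution 0.8 and no integration.

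Of 18 clusters, those with at least 3 of the 8 markers of a class 2-fold above other cells of the day, leading the next class by 2, were named. Endoderm clusters with at least 6 hepatic markers were called hepatic endoderm-like. Doublets were scored with Scrublet in scanpy 1.11.5 and not removed. The other cells at D8 and D14 were the background for each level. Summed counts were scaled to 1000000 UMIs, with exact Poisson, conditional binomial and Clopper-Pearson intervals (scipy 1.17.1). A fold of 2 was taken with 10 CPM added, over genes at or above 10 CPM in either group. Shares and genes per cell used cells thinned to 4000 UMIs. No test was run, since each day has 1 library, and the steps were tested on simulated data. TMM factors came from edgeR 4.0.16.

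Named genes were the 10 members, genes of the fixed lists, the 5 most similar genes and the 10 leading genes of the endoderm clusters. The members, lists, markers and the naming rule were chosen with earlier results of these data known. The D14 barcodes were singled out after their values were seen. The authors' cluster names were not used here.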

Additional observations from a re-analysis of the deposited data

Results flagged for a closer look

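The D21 barcodes outside the cell filter, which enter none of the main comparisons, were not sorted by cell type. Hepatic cells are thus not set apart among them. The 10 genes took 1.41% of their UMIs, between 9.36% in kept hepatic endoderm-like cells and 0.155% in the other kept cells. ALB was at 5112 CPM, SERPINA1 at 2842 CPM and AFP at 2072 CPM in these 7203 barcodes, against 625, 259 and 266 CPM in the 1639 other kept cells. Of the 7203 barcodes, 657 had over 5% of their UMIs in the 10 genes. The median depth of these 657 was 1451 UMIs, and 522 of them had 2000 genes or fewer. In the barcodes outside the filter at D8 and D14, TTR was at 321 and 195 CPM.

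At D14, 1 CM-like barcode held 333 UMIs of the 9 genes other than TTR, and the 4 D14 cells of the hepatic cluster held 1099. Both are single barcodes or a handful in 1 library, and no replicate exists to set them against.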

How the results depend on the processing

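All 10 genes stayed past 2-fold in D21 hepatic cells over other D21 cells under every alternative, and 9 or 10 over D14 endoderm-like cells. The D14 over D8 count of 2 became 1 with every list left out of the variable genes, 6 at a mitochondrial limit of 5%, 5 with a marker gate in place of clusters, 0 with 100 CPM added and 5 with the 4 D14 hepatic cells. The endoderm-like count at D14 of 4 became 2, 9, 1 and 7 under the lists, the 5% limit, 100 CPM and the 4 cells, and the D8 count of 3 became 1 with 100 CPM. The TTR level as a percent of D21, 46.9% at D8 and 43.4% at D14, became 75.0% and 66.7% at 5%, 45.1% and 41.4% at 20%, 31.3% and 40.6% with the gate, 31.0% and 29.2% with median-of-ratios scaling, 31.8% and 29.8% with TMM, and 44.7% and 45.3% as a mean of cells; D8 was 49.2% without the top doublet scores, and D14 37.0% without the lists. At 5%, 5 rather than 9 genes were under 1% of the D21 level at D14 and the median D21 cell showed 8 genes; there 3 of the 4 D14 hepatic cells, the D14 CM-like barcode and the 40 D21 cells joined the endoderm-like cluster. Without that barcode at 5%, the counts were 3 over D8 and 6 over the other D14 cells, TTR was at 75.0% and 67.1%, and 5 genes were again under 1%. Without thinning the median early cell showed 1 gene at D8 and 1 at D14. Other causes were not tested. The alternatives without the CM-like barcode (also at 5%), with the 4 cells and without cluster 17 were chosen after seeing the data. No paired analysis was possible because each day has 1 library.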
